A study of Mus musculus with 5 samples.

Results

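The 10 genes described here are 4 fatty acid binding proteins (*Fabp3*, *Fabp4*, *Fabp5*, *Fabp7*), 5 enzymes of fatty acid synthesis and desaturation (*Acly*, *Acaca*, *Fasn*, *Scd1*, *Scd2*) and *Thrsp*, a regulator of lipogenesis. All probes that the array's annotation assigns to one of these symbols were taken, which gave 12 of the 34885 probes with 1 gene and 10 of the 19057 genes on the array. The genes were put together with results of this same contrast in view. They were thus selected on the intensities measured on these same mutant and control arrays. Their values are therefore a description, and no p-value is given for them. RNA came from lenses of newborn mice (postnatal day 0), 2 lenses per biological replicate, and was hybridised to Illumina MouseWG-6 v2.0 BeadChips. There were 3 mutant arrays (Celf1cKO/lacZKI; Pax6GFPCre, replicates A, B and C) and 2 control arrays (replicates A and B), labelled as wild type on a mixed C57BL/6J and FVB background. In the mutant, one *Celf1* allele has floxed exon 5 removed by the *Pax6GFPCre* driver, active from the lens placode onward, and the other allele is a germline *lacZ* knock-in, which every tissue of the mutant therefore carries. *Celf1* encodes an RNA-binding protein that controls splicing, decay and translation of mRNAs. The methods describe the study's controls in general as floxed animals lacking Cre or Cre animals with intact *Celf1*, and the genotype behind the 2 control arrays was not resolved.

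Fatty acid binding proteins are small cytosolic carriers that hold long-chain fatty acids and pass them between membranes, enzymes and nuclear receptors. *Fabp3* is the heart and muscle type, *Fabp4* the adipocyte and macrophage type, *Fabp5* the epidermal type and *Fabp7* the brain type. New fatty acids are made from citrate, which leaves the mitochondrion and is cleaved by ATP citrate lyase (*Acly*) to acetyl-CoA, is carboxylated by acetyl-CoA carboxylase (*Acaca*) and is joined into palmitate by fatty acid synthase (*Fasn*). The stearoyl-CoA desaturases *Scd1* and *Scd2* then place the first double bond. *Thrsp*, known as Spot 14, is a nuclear and cytosolic protein induced by thyroid hormone and carbohydrate in liver, where it accompanies lipogenic enzymes. The lens fiber cell is filled with plasma membrane, whose lipids are built while the fiber elongates.

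Promoter sequence is shown for the 3 genes that were higher in the mutant and had an entry in the RefSeq promoter table, and for *Fasn*, the enzyme at the centre of the pathway, which was not. Of the 10 genes, 6 matched that table (*Fabp3*, *Fabp7*, *Thrsp*, *Fasn*, *Acaca*, *Acly*), and *Fabp4*, *Fabp5*, *Scd1* and *Scd2* did not. Each sequence is the 250 bases before the annotated start, 5′ to 3′ on the gene's own strand, from RefSeq on GRCm38.p6, with motif matches in capitals. *Fabp3* lies at chr4:130308488-130308737 on the plus strand, *Thrsp* at chr7:97417551-97417800 on the minus strand, *Acly* at chr11:100528001-100528250 on the minus strand and *Fasn* at chr11:120824548-120824797 on the minus strand.
Fabp3: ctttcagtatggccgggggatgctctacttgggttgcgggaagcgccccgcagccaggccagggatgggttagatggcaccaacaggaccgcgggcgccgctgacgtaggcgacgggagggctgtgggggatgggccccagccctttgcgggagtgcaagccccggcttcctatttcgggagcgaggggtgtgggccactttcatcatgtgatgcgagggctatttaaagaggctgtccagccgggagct
Thrsp: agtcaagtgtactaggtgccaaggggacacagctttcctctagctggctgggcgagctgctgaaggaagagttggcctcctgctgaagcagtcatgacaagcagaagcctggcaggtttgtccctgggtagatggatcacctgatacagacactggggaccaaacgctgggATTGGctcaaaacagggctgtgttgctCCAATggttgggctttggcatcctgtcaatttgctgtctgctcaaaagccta
Acly: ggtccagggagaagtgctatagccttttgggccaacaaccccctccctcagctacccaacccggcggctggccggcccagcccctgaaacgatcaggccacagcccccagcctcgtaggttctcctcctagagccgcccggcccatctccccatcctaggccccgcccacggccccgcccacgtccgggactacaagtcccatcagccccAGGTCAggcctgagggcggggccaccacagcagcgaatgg
Fasn: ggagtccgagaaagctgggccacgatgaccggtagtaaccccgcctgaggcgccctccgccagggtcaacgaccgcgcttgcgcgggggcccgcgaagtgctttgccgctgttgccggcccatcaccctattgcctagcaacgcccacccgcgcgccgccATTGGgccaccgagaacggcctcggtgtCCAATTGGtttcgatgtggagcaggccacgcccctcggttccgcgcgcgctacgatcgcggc

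Both strands were searched for the TATA box TATAAA, the CCAAT box CCAAT, the E-box CACGTG, the sterol element TCACNCCAC and the nuclear receptor half-site AGGTCA, which among 32851 promoters of the same length were present in 12.4%, 33.8%, 6.02%, 1.05% and 14%. None of these letters stood in the *Fabp3* window, which was 64.8% G and C. The *Thrsp* window (53.6% G and C) held a CCAAT box at 79 to 75 and another at 52 to 48 bases before the start, the first of which lies on the opposite strand. The *Fasn* window (69.2%) held 3, at 90 to 86, 62 to 58 and 59 to 55 bases before the start, the last pair overlapping. The *Acly* window (68.8%) held an AGGTCA at 40 to 35 bases before the start. Thus the 3 genes that were higher in mutant lenses had no searched motif in common in these windows. A match is a run of letters, and nothing was measured on these promoters.

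The deposited intensities are on a linear scale after background correction and normalization between arrays, so that values near 0 lie at the background and some are negative. The median probe read 5.6 to 7.2 in the mutants and 6.3 to 6.7 in the controls. Control B had 8205 of 45281 values at or below 0, against 3442 to 5993 on the other arrays. It also held the lowest of all values, -20.5. No detection call per probe was available, and precision is limited by there being 5 arrays. Of the 12 probes of the 10 genes, 7 had a mean below 20. Differences were computed as log2(intensity + 36.5), a constant that puts the lowest value of the table at 16, and fold changes on this scale understate the change of dim probes. A probe was called at an adjusted p under 0.05 in limma's fit over all 34885 probes. The targeted gene *Celf1* was lower on 3 of its 4 probes, 1 of these reading 90.2, 109 and 85.5 in the mutants against 512 and 572 in the controls, a log2 difference of -2.14. The fourth *Celf1* probe, of another transcript record, read 283, 324 and 227 in the mutants against 201 and 178 in the controls and was not called. The position of these probes against the floxed exon was not looked up. Mutants A and B differed from the other 3 arrays in sex-linked RNAs. Signal for *Xist*, transcribed from the inactive X, was -0.3, -0.9 and 263.5 in mutants A, B and C against 432 and 441 on the controls, and that for Y-linked *Eif2s3y* was 207, 177 and 4.4 against 2.5 and 1.1. The log2 difference of mutant array C alone against the controls is therefore given beside the main one, as a value with no test, since that arm has 1 array. In whole lenses, fewer cells of a type and less RNA per cell cannot be told apart.

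Of the 12 probes, 3 were called higher in the mutant (*Fabp3*, *Acly* and 1 of 2 probes of *Thrsp*), against 2.4% of all probes, and 1 was called lower (*Scd2*), against 1.89%. The 4 called probes belonged to 4 genes, where 4.28% of all probes were called in either direction. The study's thresholds were a p under 0.05 with a fold of at least 2.0 or 2.5, and its methods name no test. With limma's unadjusted p and the fold on the shifted scale, which can differ from the study's, *Fabp3* and *Thrsp* passed at both. Of all probes, 0.662% and 0.267% did. All mutant arrays lay above all controls for 3 probes (15.5% of all probes) and below them for 2 (15.4%), the second of which was *Fabp5*. For the other 7 probes the groups overlapped. The median log2 difference of the 12 was 0.01, against 0.002 over all probes. As the genes were chosen with this contrast known, these counts say nothing of the gene set as a whole.

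**Figure D1:**
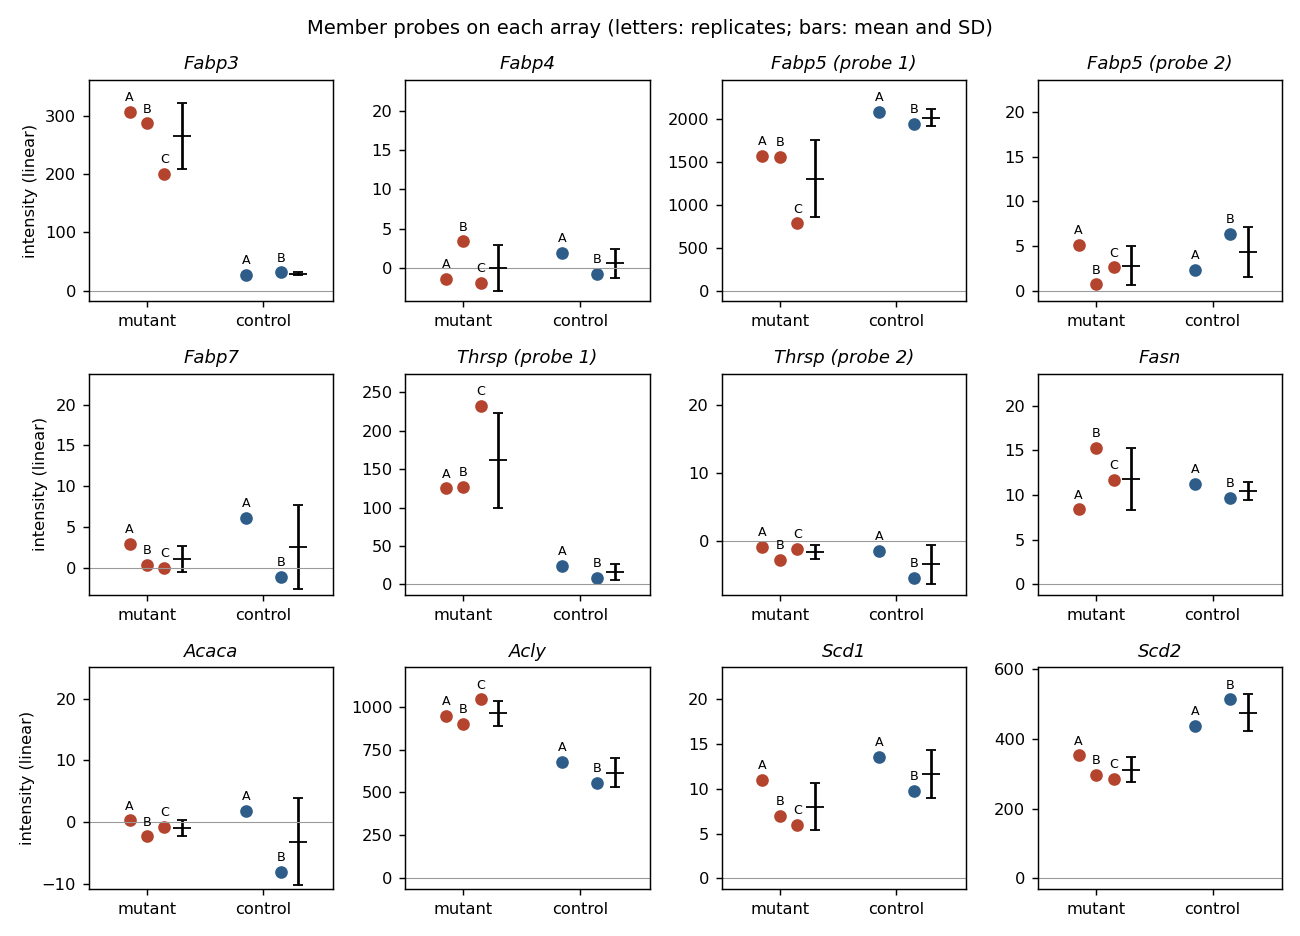
Intensity (linear scale) of each of the 12 probes on the 3 mutant arrays (red, left) and 2 control arrays (blue, right), with letters for the replicates and bars for the mean and SD. The scale differs between panels. Mutant *Fabp3* values lie between 201 and 307 and control values at 27 and 31.3, while 7 panels stay near 0.

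Among the carriers, *Fabp3* rose in the mutant lens. It read 307, 287 and 201 in mutants A, B and C against 27 and 31.3 in controls A and B. Every mutant array was far above both controls, and mutant C was the lowest of the mutants. The means were 265 ± 56.5 (SD, n = 3) and 29.2 ± 3.04 (SD, n = 2), a log2 difference of 2.18 (SE 0.15), or 4.53-fold on the shifted scale. Without the added constant the ratio of the mean intensities was 9.08. Mutant C alone gave a log2 difference of 1.85. The gene kept its call when any 1 mutant array was left out. Without control A the difference was 2.13, and without control B it was 2.23. Such fits reuse the arrays on which the genes were chosen, so calls kept in them, here and below, are no separate support.

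The brighter *Fabp5* probe read 1569, 1558 and 781 in mutants A, B and C against 2077 and 1941 on the controls. All mutant values lay below both controls, but mutant C stood at a distance from the other mutants. The means were 1303 ± 452 (SD, n = 3) and 2009 ± 96.1 (SD, n = 2), with a log2 difference of -0.68 (SE 0.27) that did not pass the threshold. Without mutant C the difference was -0.35, also not called, and with mutant C alone against the controls it was -1.32. The dimmer *Fabp5* probe read 5.1, 0.7 and 2.6 in the mutants against 2.3 and 6.3 in the controls, with a log2 difference of -0.05 (SE 0.09). The dimmer probe stayed near the background on arrays where the brighter one read 781 or more, so it could not inform on the difference.

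*Fabp4* and *Fabp7* read near 0 in both groups. *Fabp4* read -1.4, 3.4 and -1.9 in the mutants against 1.9 and -0.7 in the controls, with a log2 difference of -0.02 (SE 0.09). *Fabp7* read 3, 0.4 and 0.1 against 6.2 and -1, with a log2 difference of -0.05 (SE 0.10). At this signal a fall could not be seen, and neither probe rose above the background in the mutants. Of the carriers that share the *Fabp4* neighbourhood, *Fabp5*, *Pmp2*, *Fabp9*, *Fabp4* and *Fabp12* are consecutive protein-coding genes on chromosome 3 in the RefSeq annotation, whereas *Fabp3* lies on chromosome 4 and *Fabp7* on chromosome 10. The family's other members, which include the intestinal type *Fabp2*, the ileal bile acid carrier *Fabp6* and the retinol binding proteins, were measured for 10 of 11 genes. None was called in either direction, and none had an unadjusted p under 0.05. Of all 19057 genes, 1808 were higher and 1770 lower at that unadjusted p. Of the 10, 7 were dimmer than the median probe, where a fall is hard to detect. Of all genes, 3.08% were called higher and 2.58% lower by their brightest probe. In this family the 4 with the smallest p were *Fabp6* (log2 difference 0.12), *Rbp7* (-0.11), *Fabp2* (0.06) and *Fabp9* (-0.07), none past the threshold.

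**Figure D2:**
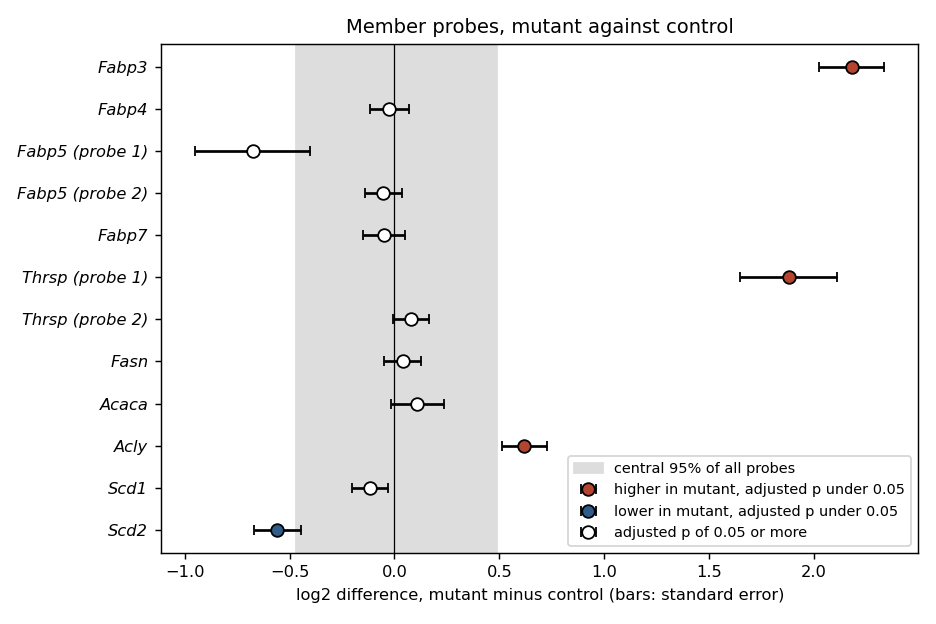
Log2 difference, mutant minus control, of each of the 12 probes with its standard error; the grey band holds the central 95% of all 34885 probes (-0.47 to 0.49). *Fabp3* (2.18) and the brighter *Thrsp* probe (1.88) lie far to the right of the band, *Acly* (0.62) just beyond it, and *Scd2* (-0.56) and the brighter *Fabp5* probe (-0.68, not called) to its left.

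*Thrsp* rose on 1 of its 2 probes. The brighter probe read 125, 127 and 232.5 in mutants A, B and C against 23.9 and 8.6 on the controls. Mutant C was the highest array, the reverse of its place for *Fabp3*, and the groups did not overlap. The means were 161 ± 61.6 (SD, n = 3) and 16.2 ± 10.8 (SD, n = 2), a log2 difference of 1.88 (SE 0.23), or 3.68-fold, with a ratio of mean intensities of 9.93 that rests on control values near the background. Without control B the difference was 1.67 and no longer past the threshold, and mutant C alone gave 2.37. The dimmer probe was below 0 on every array, reading -0.9, -2.8 and -1.1 in the mutants against -1.4 and -5.4 in the controls. The mean of both probes gave a log2 difference of 0.98.

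*Acly* rose in the mutant. It read 946, 897 and 1042 in mutants A, B and C against 676 and 554 on the controls. Every mutant array was above both controls. The means were 962 ± 73.6 (SD, n = 3) and 615 ± 85.8 (SD, n = 2), a log2 difference of 0.62 (SE 0.11), or 1.54-fold. The difference lost its call without mutant A (0.63), without mutant B (0.67) and without control B (0.48), and mutant C alone gave 0.73.

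The enzymes of the steps after *Acly* had low signal on all 5 arrays. *Acaca*, read by a probe with no transcript record in the annotation, was at 0.3, -2.3 and -0.8 in the mutants against 1.8 and -8.1 in the controls, a log2 difference of 0.11 (SE 0.13). *Fasn* read 8.4, 15.3 and 11.7 in the mutants against 11.2 and 9.7 in the controls, a log2 difference of 0.04 (SE 0.09). The groups overlapped for both, and each gene had only 1 probe, so a failed probe and a low transcript level cannot be told apart.

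The desaturases *Scd1* and *Scd2* differed in how well they were measured. *Scd2* fell in the mutant, reading 353, 298 and 284 in mutants A, B and C against 438 and 514 on the controls. All mutant arrays were below both controls. The means were 312 ± 36.4 (SD, n = 3) and 476 ± 53.3 (SD, n = 2), a log2 difference of -0.56 (SE 0.11). This call was lost without mutant B (-0.53), mutant C (-0.50), control A (-0.66) or control B (-0.45), and mutant C alone gave -0.67. *Scd1* read 11, 7 and 6 in the mutants against 13.6 and 9.8 in the controls, with overlapping groups and a log2 difference of -0.12 (SE 0.09). *Scd3*, *Scd2*, *Scd4* and *Scd1* are consecutive related genes on chromosome 19, and how far a probe of one reads another was not examined.

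The rest of the pathway was taken from 6 lists of 120 lipid genes, of which 114 were measured, each by its brightest probe. Of these, 8 were higher, 3 were lower and 103 were not called, with a median log2 difference of 0.005, against -0.003 over all 19057 genes. The shares of all genes called were the 3.08% and 2.58% given above. These lists were chosen with earlier results of these data known, and the genes named from them mostly by smallest p. The adjusted p-values printed for them below thus describe the fit and are no separate support. The list genes were also brighter, with 30 of 114 dimmer than the median probe against 7753 of all 19057. The shares are therefore not like for like. Calls fell in 3 of the lists: 3 higher and 1 lower of 26 other lipogenic enzymes, 5 higher and 1 lower of 22 genes of glycerolipid synthesis and lipid droplets, and 1 lower of 21 genes of PPAR signalling and fatty acid oxidation. None of 20 regulators of lipogenesis and none of 15 genes of fatty acid uptake and activation was called.

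Upstream of *Acly*, the mitochondrial citrate carrier *Slc25a1* rose. It read 312, 300.1 and 327.5 in mutants A, B and C against 98.4 and 124 on the controls. The mutant arrays lay close together and far above both controls, with a log2 difference of 1.25 (SE 0.10, adjusted p = 0.00126). The gene's other probe, at 158, 187 and 201 against 47.8 and 45.2, gave 1.39 (adjusted p = 0.00115). *Acss2*, which makes acetyl-CoA from acetate, rose by less, at 60.2, 54.8 and 63 in the mutants against 34.6 and 38 in the controls (log2 difference 0.40, adjusted p = 0.0357), and its other probe was dim and not called.

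After *Fasn*, fatty acids are lengthened in the endoplasmic reticulum. *Hacd3*, a dehydratase of that cycle, rose to 1925, 1702 and 1426 in the mutants against 950.2 and 1010 in the controls (log2 difference 0.75, adjusted p = 0.0176). *Elovl6*, the elongase of saturated fatty acids, fell to 163.3, 163.5 and 168 in the mutants against 212 and 231 in the controls (log2 difference -0.36, adjusted p = 0.0466). Enzymes of one list thus moved in both directions, and its median log2 difference over 26 genes was 0.05.

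Of the 6 lists, that of glycerolipid genes held the largest number of calls. *Dgat2*, which completes triglyceride synthesis, rose to 182, 197 and 191 in the mutants against 102 and 123 in the controls (log2 difference 0.61, adjusted p = 0.0111). *Pnpla2*, the lipase that opens triglyceride breakdown, rose to 605, 535 and 529 against 345 and 367 (0.59, adjusted p = 0.0112). *Agpat5* and *Agpat4*, acyltransferases that make phosphatidic acid, rose, with 34.1, 55.3 and 64 in the mutants against 13.9 and 10.6 in the controls for *Agpat5* (0.83, adjusted p = 0.0215) and a log2 difference of 0.53 for *Agpat4* (adjusted p = 0.0391). *Plin2*, the coat protein of lipid droplets, rose to 159, 142.5 and 103 in the mutants against 68.9 and 72.7 in the controls (0.66, adjusted p = 0.0432), lowest among the mutants on array C. *Lpin1*, the phosphatidate phosphatase that feeds *Dgat2*, fell to 110.4, 99 and 92.4 in the mutants against 187 and 186.9 in the controls (-0.71, adjusted p = 0.00527), and another of its probes fell by 0.76 on the log2 scale.

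**Figure D3:**
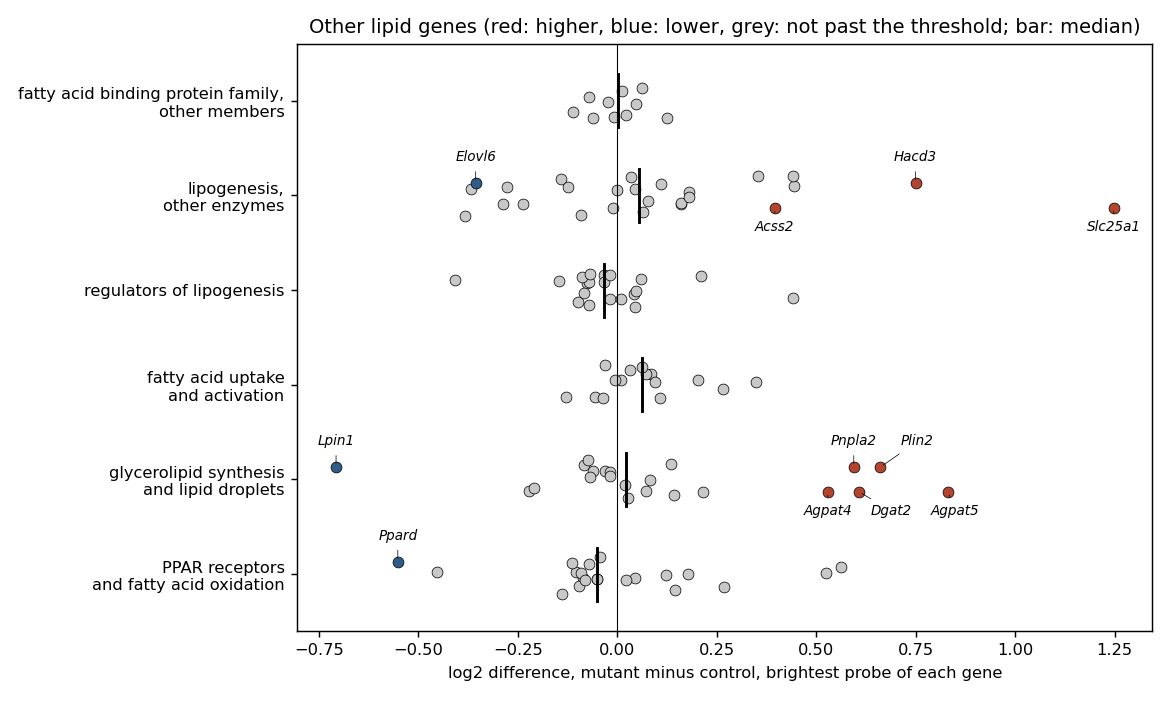
Log2 difference, mutant minus control, of the 114 measured genes of 6 lipid lists by their brightest probe, with the list's median as a bar and vertical scatter within a list for legibility only. Called genes are named; *Slc25a1* (1.25) lies farthest to the right and *Lpin1* (-0.71) farthest to the left, and most genes stand near 0.

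Regulators of lipogenesis had 0 calls by limma. At an unadjusted p under 0.05, 1 of 20 was higher and 1 lower, beside 1808 and 1770 of all 19057 genes. *Srebf1*, the master transcription factor of lipogenic genes in liver, read 12.7, 14.2 and 21.2 in the mutants against 18.6 and 20.7 in the controls (log2 difference -0.10, adjusted p = 0.699). *Mid1ip1*, the paralog and partner of *Thrsp*, read 102, 140.3 and 134 in the mutants against 99.6 and 66.3 in the controls, a difference of 0.44 that did not pass (adjusted p = 0.192). *Rxrb*, a nuclear receptor partner, gave -0.41 (adjusted p = 0.203), and *Usf2*, a transcription factor that binds E-boxes, gave -0.15, not called. For *Insig1*, a sterol-regulated gene, the brightest probe was not called (0.21), and another probe was called higher, at 92.4, 83 and 84.2 in the mutants against 38.9 and 43.7 in the controls (0.66, adjusted p = 0.00552). Of the others, 1 read 57.8, 66.4 and 52.8 in the mutants against 33.1 and 42.9 in the controls (0.36, not called), and the last was near 2 on all arrays.

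Uptake genes likewise had 0 calls by limma. At an unadjusted p under 0.05, 2 of 15 were higher and 0 lower, beside 1808 and 1770 of all 19057 genes. Those with the smallest p were *Got2* (log2 difference 0.35, adjusted p = 0.105), the transporter *Slc27a6* (0.27, adjusted p = 0.186), the lipoprotein lipase *Lpl* (0.20, adjusted p = 0.352) and *Cd36*, the fatty acid translocase (-0.13, adjusted p = 0.547). In the PPAR and oxidation list, *Ppard*, a nuclear receptor to which fatty acid binding proteins deliver ligands, fell to 105, 92.9 and 86.1 in the mutants against 157 and 154 in the controls (-0.55, adjusted p = 0.0149). *Cpt1b* and *Acadvl*, of mitochondrial fatty acid oxidation, gave 0.56 (adjusted p = 0.0505) and 0.53 (adjusted p = 0.0666), and *Cpt2* gave -0.45 (adjusted p = 0.252), none called by the brightest probe. The other *Acadvl* probe was called higher, at 202, 215 and 209 in the mutants against 141 and 109.6 in the controls (log2 difference 0.60, adjusted p = 0.017).

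Without each array in turn, *Slc25a1* and *Lpin1* kept their calls. *Dgat2* lost its call without mutant B (0.58) and *Pnpla2* without control A (0.55) or control B (0.64). *Hacd3* lost it without mutant B (0.74), control A (0.71) or control B (0.79), as did *Agpat5* (0.79, 0.88 and 0.78) and *Ppard* (-0.54, -0.54 and -0.56). *Plin2* lost it without mutant A (0.56), mutant B (0.62), control A (0.64) or control B (0.69), and so did *Agpat4* (0.58, 0.57, 0.45 and 0.61). *Acss2* and *Elovl6* lost their calls without any 1 array, at 0.36 to 0.43 and -0.41 to -0.30. All 11 differences kept their sign in these fits. On mutant C alone *Plin2* stood at 0.38 and *Hacd3* at 0.53, below mutants A and B.

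**Figure D4:**
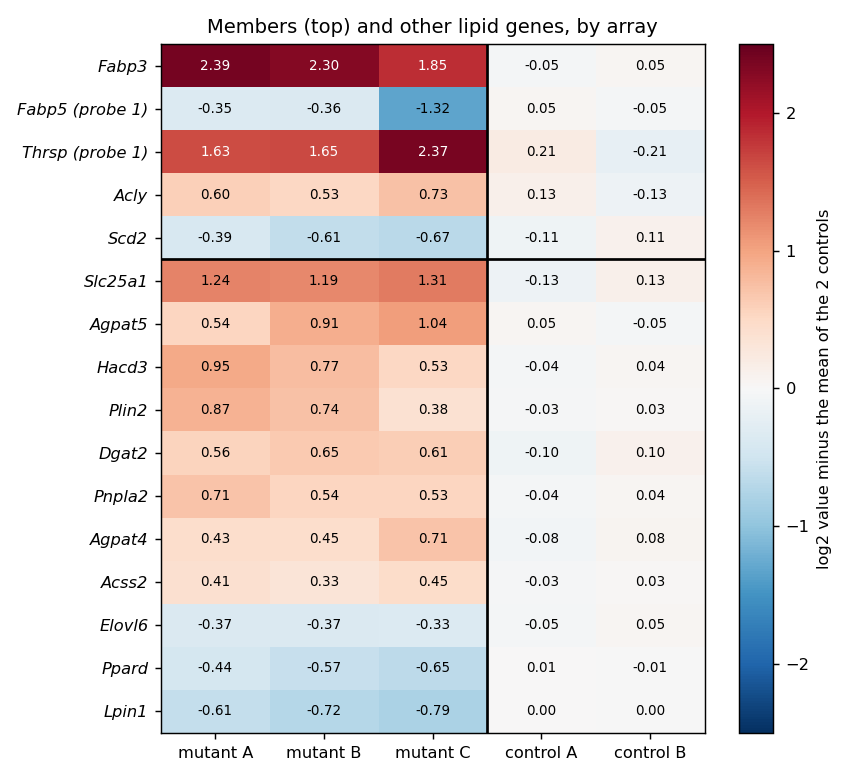
Log2 value of 5 probes of the gene set (top) and of the 11 called lipid list genes (below) on each array, minus the mean of the 2 controls. Mutant C has the lowest *Fabp3* (1.85) and *Fabp5* (-1.32) and the highest *Thrsp* (2.37) of the 3 mutant arrays, whereas *Slc25a1* is between 1.19 and 1.31 on all 3.

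Fatty acid binding proteins mark other cell types, so markers of tissues that a dissected lens could carry were read beside them. Adipocyte markers were near background: 8 were measured, 7 had a mean below 10, their summed intensity was 23.1 to 34.9 on the mutant arrays against 27.9 and 33 on the controls, and *Adipoq*, *Plin1* and *Cidec* each read below 10 on every array. Muscle markers, relevant to *Fabp3*, were called in 0 of 9 cases and summed to 43.6 to 55.9 in the mutants against 36.3 and 50.1 in the controls, with *Ckm* and *Acta1* below 4 everywhere. Endothelial markers were present on all arrays (2120 to 2698 in the mutants against 2334 and 2788 in the controls), with 0 of 10 called. Macrophage, retina and glia, and surface epithelium markers had 0 calls among 9, 10 and 8 genes, and their sums overlapped between the groups.

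In 2 marker lists some genes were called, beside the 2.58% of all genes called lower. Of 8 periocular mesenchyme markers, *Pdgfra* (log2 difference -1.21, adjusted p = 0.0069) and *Foxc1* (-0.55, adjusted p = 0.0181) were lower and none was higher. The other 6 had means below 10, among them *Col1a1*, *Col3a1* and *Lum*. The list's sum of 149 to 184 in the mutants against 338 and 406.5 in the controls thus rested on the 2 called genes. Its median log2 difference was -0.03. Which cells of the dissected lens gave the signal of *Pdgfra* and *Foxc1* was not tested. Lens markers summed to 118656, 125696 and 142008 in mutants A, B and C against 151654 and 144525 on the controls. *Lim2* and *Bfsp2* were called lower, and 9 of 11 genes were not called. The median log2 difference of the 11 was -0.18, against -0.003 over all genes. All mutant arrays lay below both controls for 6 of the 11 and above them for 0, beside 3299 and 3121 of all 19057 genes. The part of these genes in the difference of *Scd2*, *Fabp5* or *Fabp3* was not tested. Red blood cell markers were uneven, at 4521 on mutant A against 1277 to 2047 on the other 4 arrays, whereas no gene of the set stood apart on mutant A.

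Profiles over the 5 arrays were compared among 17423 probes brighter than the median, by the root mean square difference of log2 values after each probe's mean was subtracted. Closest to *Fabp3* were *Hspb8* (0.178), a small heat shock protein, *Unc13c* (0.189), *Ddit3* (0.199), a transcription factor of the stress response, *Sqstm1* (0.200), an autophagy receptor, and *Sptbn1* (0.213), a spectrin, whose log2 differences were 2.51, 1.85, 2.17, 1.79 and 2.12. Closest to the brighter *Fabp5* probe were *Lhfp* (0.0531), *Coq2* (0.0605), *Ctnnb1* (0.0697), *Gosr2* (0.0705) and *Tial1* (0.0712). All 5 shared with *Fabp5* a low value on mutant C: *Coq2*, for one, read 351, 335 and 149 in mutants A, B and C against 468 and 472 on the controls. Since probes were chosen by profile, the shared low value on mutant C and the large differences of those near *Fabp3* follow from the choice. These likenesses rest on 5 arrays and describe them only.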

How the data were processed

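Lens RNA of 3 mutant and 2 control samples was measured on Illumina arrays. The authors corrected the background with lumi and normalized by the rank invariant method, and deposited 1 linear intensity per probe and array; tool versions and a genome build were not given in the sources used here. All 5 value columns were used. The annotation gives 1 gene for 34885 of 45281 probes, several for 18 and none for 10378. From the deposited intensities, log2(intensity + 36.5) was fitted with limma 3.58.1 in R 4.3.3 (lmFit, eBayes; a two-sided test without a block) and Benjamini-Hochberg adjustment over the 34885 probes and a threshold of 0.05, with no filter on dim probes. Since 3 arrays against 2 allow 10 splits, an exact permutation test cannot go below 0.1. The code was tested on simulated data. Figures used Python 3.11.15 and matplotlib 3.10.9.

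The genes and lists were chosen with earlier results of these data known. Named genes were every member, *Celf1*, up to 4 genes per lipid list with the smallest p by the brightest probe, and the 5 probes most like *Fabp3* and like the lowest member; *Agpat4*, *Plin2*, *Insig1*, the sex-linked genes and single markers fall outside this rule and were named after their values were seen. The alternatives were 2 normalizations, 2 constants, a filter on dim probes, 3 choices of probes, 2 forms of moderation, array weights, a replicate block, leaving out each array and mutant C alone.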

Additional observations from a re-analysis of the deposited data

How the results depend on the processing

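With ordinary per-probe variances in place of limma's moderation, 4 of all probes, 0 of the gene set and 0 of the lipid lists were called, against 1494, 4 and 11. The mean of each gene's probes gave 896 calls over all genes and left 1 gene of the set past the 2.0-fold threshold, against 2, since the dim *Thrsp* probe entered the mean. Leaving out 1 array gave 420 (without control B) to 1494 calls over all probes, 1 (without control B) to 3 in the gene set and 3 (without mutant B or control B) to 13 (without mutant C) in the lipid lists; without a control, the spread comes from the mutants alone. With mutant C alone, 5 lipid list genes were called, in a fit that takes its spread from the controls and the moderation and assumes that the lone array varies like them. Among 207 single values of the gene set under these alternatives, 195 moved by less than the spread between replicates, 12 moved further and 0 called values changed sign. The filter on dim probes, the fits of all probes or of the brightest, and both forms of moderation cannot change a log2 difference. Their values were counted among the 195 though nothing could move them. In fits that kept at least 2 arrays per group, *Fabp3* and *Thrsp* lost their calls only without moderation. *Acly* lost its call without moderation, without mutant A and without mutant B. *Scd2* lost its call with median centring, the larger constant, the intensity trend or no moderation, and without mutant B or mutant C. *Fabp5* was called in none of these fits. Losses without a control are given with each gene above.

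The replicate letters do not pair the samples by any label, and the A minus B differences of the 2 groups correlated at 0.0127 over probes. With the letter as a replicate block, 2227 of all probes, 4 of the gene set and 16 of the lipid lists were called. No control carries the letter C, so this fit compares only arrays A and B. Its log2 differences equal those without mutant C (*Fabp3* 2.34 and *Thrsp* 1.64 in both), so it is not a separate alternative for them. Probes near 0 limit what can be seen for *Fabp4*, *Fabp7*, *Fasn*, *Acaca* and *Scd1*.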
